A study of Mus musculus with 13 samples.

Results

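The genes that encode potassium channels and their auxiliary subunits were followed through an H3K27me3 ChIP-seq comparison of mouse embryonic stem cells with and without SAFB and SAFB2. Members were every row of the deposited promoter count table whose gene symbol is Kcn, further letters and a number, which leaves out antisense and overlapping-transcript names. The pattern took 206 of 77489 promoter rows used, standing for 92 of 55232 genes, all protein coding in RefSeq. A total of 102 of the 57909 deposited H3K27me3 regions overlapped a member row by at least 1 bp. Chromosome 6 held 5 of the genes (Kcnd2, Kcna5, Kcna1, Kcna6 and Kcnj8), with 8 rows and 6 regions, and chromosome 11 held 8 genes.

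All cells were male CAST/B6 hybrid embryonic stem cells of a line named for the Rosa26 locus and RMCE, and every group, controls included, had 3 days of doxycycline. The sources used here do not say what doxycycline induces. The cells were wild type (WT) or double knockout for safb1/2 (DKO) and were fixed with 0.6% formaldehyde. H3K27me3 was measured in 5 WT and 4 DKO libraries, and total H3 in 2 libraries of each genotype. DKO replicate 1 for H3K27me3 is clone 4 and every other DKO library is clone 13, so the DKO group rests on 2 clones. Whether the libraries of a group are separate cultures is not stated, and p-values reflect only their spread, technical spread included. In ChIP-seq of bulk cells, fewer cells with the mark and less mark per cell cannot be told apart.

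Potassium channels are membrane pores that let potassium ions pass along their gradient, and they set the resting potential and repolarise excitable cells. Most of these genes belong to neurons, muscle, heart, kidney or endocrine cells. H3K27me3 is the methylation that Polycomb repressive complex 2 places on histone H3, and in embryonic stem cells it covers promoters of many genes of differentiated cells, chiefly those rich in CpG dinucleotides. SAFB and SAFB2 are nuclear RNA- and DNA-binding proteins.

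Per library, 1818647 to 3134799 H3K27me3 reads were counted in the regions and 798466 to 1427771 in the promoter rows, and 525847 to 736566 H3 reads were counted in the regions. A promoter row spans 3001 bp, 2000 before and 1000 after a transcription start. Levels are CPM, counts per 1000000 counted reads after TMM scaling of the libraries. The file label of every library also carries b6. Whether the counts hold reads of both parental genomes of the hybrid was not established here. Of 10 genes active in embryonic stem cells 3 had a region, as did all 10 regulators of somatic lineages and none of 10 broadly expressed genes. Reads that overlapped more than 1 row were not counted, so 40 member rows, mostly alternative starts of one gene, had no base of their own, and only 70 of 206 were free of any overlap. Row levels are therefore given as reads of the row, and their order, highest or lowest, is no order of H3K27me3 density. Densities are compared between genes on the regions, per kilobase (kb). A further point of design touches the results. The file labels of 2 WT and 2 DKO libraries carry Old or New and those of 3 WT and 2 DKO libraries carry neither, a division whose meaning no source gives, and values within each set stand beside the results. Old is carried by WT replicate 4 and DKO replicate 3, and New by WT replicate 5 and DKO replicate 4. The labels of WT replicates 1, 4 and 5 begin with rmce, and those of WT replicates 2 and 3 each with another stem. The set bearing Old or New thus holds rmce and DKO clone 13 alone. The set lacking them also holds the other WT stems and DKO clone 4. Set, WT stem and DKO clone therefore cannot be told apart where the sets are compared.

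Most potassium channel genes carried H3K27me3. A region found in WT, DKO or both lay at a promoter row of 75 of the 92 genes (81.5%), against 35.7% of 21276 protein-coding genes, and genes with such a region are called marked. A region found in both genotypes was present at 72. Of the 102 member regions 93 were in the list shared by WT and DKO (91.2%, against 48.7% of all regions), 4 were in the WT list and 5 in the DKO list. The member regions were long, with a median of 3628 bp against 687 bp for all regions, and 42 exceeded 5000 bp. The main region of each marked gene is the one with the highest mean CPM in WT. These main regions had a median of 17.4 CPM per kb in WT (range 6.02 to 44.6) and 17.3 CPM per kb in DKO. All regions had a median of 8.83 CPM per kb in WT. Member regions all lie at promoter rows and the main ones were picked by WT level, while all regions include those away from promoters. The part of this in the differences of share, length and level was not tested. Of the 92 genes' strongest rows 18 were within the top 3% of tested promoter rows, at or above 135 CPM.

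Among the voltage-gated families, nearly every gene was marked. Kv1 genes encode axonal and delayed-rectifier channels. Of 8 genes 7 had a region (8.63 to 25.3 CPM per kb, median 17.2), led by Kcna2 and by Kcna1, whose mutations cause episodic ataxia. The highest Kv1 row was that of Kcna3, a channel of neurons and T cells, at 168 CPM in WT. The lowest was that of Kcna1 at 1.41 CPM, but its 2 rows had 17 bp of their own each, and its region carried 22.2 ± 0.915 CPM per kb (SD, n = 5). The unmarked member was Kcna10. Kcnb2, a Kv2 gene that encodes a somatodendritic delayed rectifier, had a region at 16.8 ± 2.13 CPM per kb in WT. All 4 Kv3 genes, which permit fast spiking, were marked (12.9 to 34.1 CPM per kb, median 23.9). Kcnc4 had the highest Kv3 row, at 268 CPM. Of the Kv4 genes, which carry the transient A-type current, Kcnd2 and Kcnd3 had a region and the X-linked Kcnd1 had none, with a row at 8.83 ± 3.11 CPM (SD, n = 5) in WT.

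The silent Kv subunits form no channel alone and join Kv2 subunits. Of the 10 genes 9 were marked (14.98 to 30.4 CPM per kb, median 19.9), with Kcng3 highest by row (296 CPM) and Kcng4 lowest (14.4 CPM). All 5 Kv7 genes had a region (14.5 to 23.5 CPM per kb, median 19.6). They include Kcnq3 and Kcnq5, subunits of the neuronal M current, and Kcnq1 of heart and inner ear. All 8 Kcnh genes, the EAG, ERG and ELK channels that include the cardiac repolarising channel of Kcnh2, were marked as well (9.88 to 30.1 CPM per kb, median 18.2). Kcnh3, an ELK channel of forebrain, had the second highest row of all members, 394 CPM in WT, and a region of 9884 bp at 30.1 ± 1.34 CPM per kb. Kcnh4 had the lowest row of that family, 1.68 CPM over 202 bp of its own.

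Families outside the voltage-gated group had more unmarked genes. Of the 8 BK and Slo genes, large-conductance channels and their beta subunits, 5 had a region (8.90 to 21.4 CPM per kb, median 12.5), and Kcnmb1, Kcnmb3 and the sperm channel gene Kcnu1 had none. Kcnmb4, a neuronal beta subunit, had the highest row at 21.99 CPM, and Kcnt2 the lowest at 0.159 CPM over 37 bp of its own. The 4 SK and IK genes, opened by calcium through calmodulin, all had a region. One of them, at Kcnn1, was the densest of all members, 44.6 ± 1.26 CPM per kb (SD, n = 5). At Kcnn4, the IK channel of blood cells and epithelia, only a WT-list region of 294 bp was present, and its 3 rows, with 36, 0 and 39 bp of their own, were listed at 0 in WT. Inward rectifiers pass current more readily into the cell. Of 15 genes 10 were marked (10.6 to 26.9 CPM per kb, median 16.6), and the unmarked were Kcnj1, Kcnj13, Kcnj14, Kcnj15 and Kcnj16, several of them channels of kidney and other epithelia. Kcnj4, a strong rectifier of forebrain, had the highest row at 331 CPM and the longest member region, 18408 bp (chr15:79500099-79518506). Kcnj15 had the lowest row at 0.195 CPM over 93 bp of its own.

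Two-pore channels, which carry the background leak, had the highest family median. Of 14 genes 10 were marked (14.7 to 35.96 CPM per kb, median 24.7), and Kcnk5, Kcnk7, Kcnk16 and Kcnk18 were not. Kcnk9, which encodes the acid-sensitive leak channel TASK-3, had the highest promoter row of all members, 428 CPM in WT, and Kcnk12 the third highest, 333 CPM. Per kb their regions were alike, 35.9 ± 1.25 CPM per kb and 35.96 ± 2.65 CPM per kb (SD, n = 5), a difference under either SD. Kcnk13 had the lowest row, 2.80 CPM over 26 bp of its own, although its main region carried 29.4 ± 1.55 CPM per kb. Of the 11 auxiliary genes 9 had a region (6.02 to 23.97 CPM per kb, median 13.3). These are the cytoplasmic beta subunits (Kcnab), the single-span subunits (Kcne) and the calcium-binding partners of Kv4 (Kcnip). Kcnip3 had the highest row at 235 CPM and Kcne4, which had no region, the lowest at 2.41 CPM. Across families the medians ran from 11.7 CPM per kb for SK and IK to 24.7 CPM per kb for two-pore channels, and the ranges of all families with more than 2 marked genes overlapped.

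**Figure D1:**
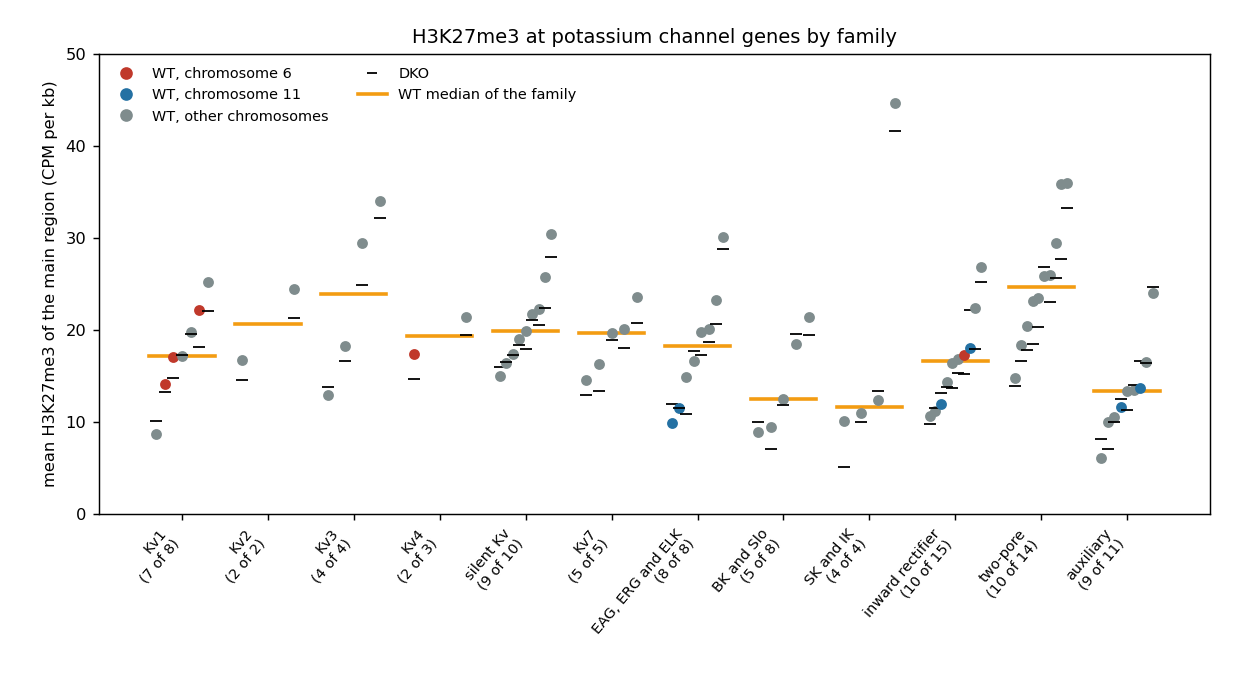
Mean H3K27me3 in CPM per kb (vertical axis) of the main region of each marked potassium channel gene, by family (horizontal axis, with the number of marked genes of all genes). The main region is the one with the highest mean CPM in WT, not always the longest. Dots are WT means coloured by chromosome, black dashes DKO means and orange lines family medians in WT, and a reader should see family medians between 11.7 and 24.7 and most DKO dashes just below their WT dot, at 56 of 75 genes.

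The promoter sequences differed in CpG content between marked and unmarked starts. RefSeq promoter sequences of 300 bases (GRCm38.p6, the assembly of mm10) were matched by symbol for 67 of the 92 genes, 92 promoters in all, of which 56 overlapped a region. These 56 are called marked here, a narrower rule than a region at the 3001 bp row. Some unmarked promoters therefore belong to marked genes, such as that of Kcnj10 with 21 CpG. Marked promoters had a median of 17 CpG dinucleotides (quartiles 5.75 and 25.3) and unmarked ones 6.5 (quartiles 3 and 9.25). Promoters of all genes were split much alike, at 15 with a region (quartiles 7 and 26) and 6 without (quartiles 2 and 19). With 20 or more CpG, 24 of 27 member promoters overlapped a region (88.9%), against 25.4% of 8701 such promoters of all genes. With 10 to 19 the share was 62.5% of 16 against 27.8% of 5580, and with 9 or fewer 44.9% of 49 against 11.1% of 18570. The promoters of all genes stood for 27025 genes and were not limited to protein-coding ones, whereas all members are protein coding. The part of this in the differences was not tested. Member promoters were no richer in CpG as a set, since 29.3% of them and 26.5% of all 32851 promoters had 20 or more. The motif searched was CG, which reads the same on both strands, and 94.6% of all promoters hold at least 1. Several promoters belong to 1 gene, so these are counts of sequences and not of independent genes. Across the 56 marked promoters, which share 47 regions, Spearman's rho between CpG count and the WT level of the region was 0.38.

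The sequences below show the range, 5′ to 3′ on the gene's strand with each CpG in capitals. Kcnk12 (chr17:87797945-87798244, minus strand) and Kcnd2 (chr6:21215096-21215395, plus strand) had strong regions, with 20 and 26 CpG. Kcnk5 (chr14:20181733-20182032, minus strand), which encodes an acid-sensitive epithelial leak channel and was chosen after its values were seen, had 26 CpG and no region, with a row at 12.1 CPM in WT. Kcnmb1 (chr11:33962763-33963062, plus strand), the smooth muscle beta subunit of the BK channel, had 1 CpG and no region.
Kcnk12: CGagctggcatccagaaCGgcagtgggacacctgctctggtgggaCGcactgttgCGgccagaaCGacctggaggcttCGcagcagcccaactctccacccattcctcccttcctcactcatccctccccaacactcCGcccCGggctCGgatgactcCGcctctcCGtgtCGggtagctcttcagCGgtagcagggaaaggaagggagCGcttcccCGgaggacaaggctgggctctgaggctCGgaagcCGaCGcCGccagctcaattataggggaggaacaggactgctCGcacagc
Kcnd2: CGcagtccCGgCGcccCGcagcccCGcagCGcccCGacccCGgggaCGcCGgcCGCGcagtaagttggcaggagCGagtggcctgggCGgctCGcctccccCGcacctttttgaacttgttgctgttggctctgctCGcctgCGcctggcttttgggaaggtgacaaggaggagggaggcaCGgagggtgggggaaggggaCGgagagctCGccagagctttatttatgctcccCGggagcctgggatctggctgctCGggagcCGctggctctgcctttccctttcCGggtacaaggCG
Kcnk5: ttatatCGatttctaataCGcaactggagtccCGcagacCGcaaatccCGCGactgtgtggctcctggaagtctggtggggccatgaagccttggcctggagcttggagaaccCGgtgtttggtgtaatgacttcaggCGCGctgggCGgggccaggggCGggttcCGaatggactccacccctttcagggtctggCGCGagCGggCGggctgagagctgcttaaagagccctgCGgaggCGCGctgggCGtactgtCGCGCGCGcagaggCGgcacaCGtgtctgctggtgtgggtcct
Kcnmb1: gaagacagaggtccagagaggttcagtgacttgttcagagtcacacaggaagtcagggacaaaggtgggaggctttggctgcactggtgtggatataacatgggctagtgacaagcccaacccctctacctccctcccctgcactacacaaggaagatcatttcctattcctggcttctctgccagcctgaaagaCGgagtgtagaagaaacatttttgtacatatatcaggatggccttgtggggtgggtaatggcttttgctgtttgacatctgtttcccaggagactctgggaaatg

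**Figure D2:**
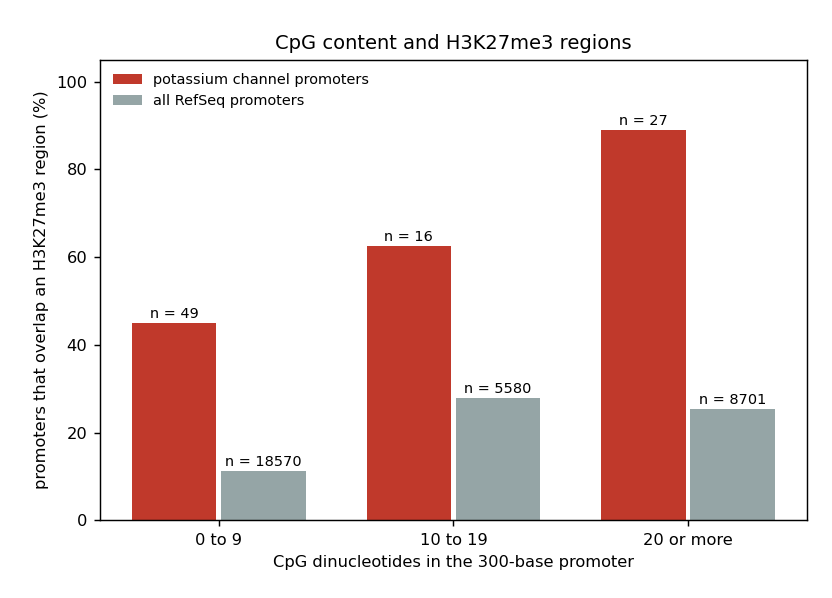
Share of promoters that overlap an H3K27me3 region (vertical axis, percent) by the number of CpG dinucleotides in 300 bases (horizontal axis), for potassium channel promoters (red) and all RefSeq promoters (grey), with the number of promoters above each bar. Potassium channel promoters rise from 44.9% to 88.9% over the 3 classes, and all promoters stand at 11.1%, 27.8% and 25.4%. All RefSeq promoters were not limited to protein-coding genes.

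DKO was compared with WT in 95 member rows and 97 member regions that had enough counts to test. Those 95 rows stood for 71 genes, and 15 of the other 21 genes could be followed through a region. Few members changed. In the promoter rows 1 fell (Kcnk9) and 2 rose (Kcnj12 and Kcnip1), 3 of 95, where 0.628% of all 32647 tested rows were called (0.438% rose and 0.190% fell). In the regions 2 fell (Kcnk9 and Kcna1) and 3 rose (Kcnip1, Kcnj12 and Kcnab3), 5 of 97, where 4.03% of all 40418 tested regions were called (2.16% rose and 1.88% fell). The called regions differed between genotypes by 1.21 to 1.64 times. With scaling factors taken off chromosomes 6 and 11, 2 regions rose and 7 fell. Over all 40418 tested regions that scaling gave 527 rises and 889 falls, against 872 and 758 in the main fit. It moved the median log2 fold change of all regions by -0.038 and that of member regions by -0.037.

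Kcnk9 fell in both readouts. Its promoter row on chromosome 15 held 418, 482, 454, 366 and 422 CPM in WT replicates 1 to 5 and 341, 360.4, 272 and 318 CPM in DKO replicates 1 to 4. Every DKO library was below every WT library. The means were 428 ± 43.6 CPM (SD, n = 5) in WT and 323 ± 38.3 CPM (SD, n = 4) in DKO, a log2 fold change, DKO minus WT, of -0.41 (SE 0.10, edgeR adjusted p = 0.0204). Its 8052 bp region (chr15:72541795-72549846, mm10) covers the promoter and the first 6820 bp of the 46742 bp gene, and held 287, 301, 298, 278 and 282 CPM in WT replicates 1 to 5 and 241, 230.2, 196 and 226 CPM in DKO replicates 1 to 4. There too the groups did not overlap, with a log2 fold change, DKO minus WT, of -0.37 (SE 0.072, edgeR adjusted p = 0.000128). Total H3 at the region was 132 and 109 CPM in the WT libraries and 121 and 116 CPM in the DKO libraries, with a log2 fold change of -0.02 (SE 0.20). In the 5 libraries lacking Old and New and the 4 bearing them, the region's changes were -0.33 (adjusted p = 0.144) and -0.40 (adjusted p = 0.0250). The region stayed called on omitting any 1 library, while the row's call ended on omitting any 1 of WT replicates 2, 3 and 5 and DKO replicates 3 and 4 (adjusted p = 0.0580 to 0.144).

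No other two-pore region passed the test. Of 14 tested regions of the family 13 had a negative log2 fold change, with a median of -0.18. That sign was common, at 65 of all 97 tested member regions (median -0.11), this family included. Of 48 member regions with at least 50 CPM in WT, a set defined below, 41 were negative, as were 74.7% of all such regions. By family, 5 of 6 Kv7 regions were negative (median -0.16) and 3 of 10 auxiliary ones (median 0.082). Whether the two-pore family differed from the rest was not tested. At Kcnk6, an endosomal leak channel named here after its values were seen, the region held 92.7, 73.7, 73.7, 71.7 and 71.4 CPM in WT replicates 1 to 5 and 64.2, 67.03, 54.05 and 58.6 CPM in DKO replicates 1 to 4. The groups did not overlap and the adjusted p was 0.0554 (edgeR, log2 fold change -0.34, SE 0.11). Kcnk12 held 264, 222, 231, 224 and 226 CPM in WT replicates 1 to 5 and 239, 227, 183 and 215 CPM in DKO replicates 1 to 4. Its groups overlapped, with a log2 fold change of -0.12 (SE 0.076).

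Kcna1 was the 1 chromosome 6 member called. It encodes a Kv1 channel of axons and lies between Kcna5 and Kcna6, the 3 regions together spanning 215 kb. The 12096 bp Kcna1 region (chr6:126636375-126648470) covers the whole gene and held 258, 278, 278, 255 and 272 CPM in WT replicates 1 to 5 and 235, 221, 201 and 221 CPM in DKO replicates 1 to 4. All 4 DKO libraries were below all 5 WT libraries. The means were 268 ± 11.1 CPM (SD, n = 5) in WT and 219.8 ± 14.1 CPM (SD, n = 4) in DKO, a log2 fold change, DKO minus WT, of -0.29 (SE 0.073, edgeR adjusted p = 0.00849). Total H3 there was 188 and 225 CPM in the WT libraries and 181 and 172 CPM in the DKO libraries, a log2 fold change of -0.24 (SE 0.16, adjusted p = 0.892), and its part in the result was not tested. In the sets lacking and bearing Old or New the changes were -0.25 (adjusted p = 0.396) and -0.31 (adjusted p = 0.0840). The call ended on omitting DKO replicate 3 (adjusted p = 0.0857).

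The regions of the other chromosome 6 members had negative log2 fold changes but were not called. At Kcnd2, the main A-type channel of dendrites, the region (chr6:21212255-21220074) held 128, 143, 135, 141 and 133 CPM in WT replicates 1 to 5 and 120.3, 107, 111 and 122 CPM in DKO replicates 1 to 4. The groups did not overlap, with a log2 fold change, DKO minus WT, of -0.24 (SE 0.088, edgeR adjusted p = 0.104). Its promoter row gave 185 ± 8.78 CPM (SD, n = 5) in WT and 153 ± 8.67 CPM (SD, n = 4) in DKO, again without overlap, and a log2 fold change, DKO minus WT, of -0.27 (SE 0.12, edgeR adjusted p = 0.354). With scaling off chromosomes 6 and 11 the Kcnd2 region passed the test (-0.28, adjusted p = 0.0486), and with a minimum count of 50 its row did (-0.28, adjusted p = 0.0412). The Kcnd2 region also passed when WT replicate 1 was left out (-0.26, adjusted p = 0.0434), as did that of Kcna6 (-0.23, adjusted p = 0.0488). At Kcna6 (chr6:126734036-126744184), a Kv1 channel that joins Kcna1 subunits, the region held 158, 171, 182, 167 and 185 CPM in WT replicates 1 to 5 and 148, 144, 145 and 163 CPM in DKO replicates 1 to 4. The 2 groups overlapped at a single WT value, with a log2 fold change, DKO minus WT, of -0.20 (SE 0.082, edgeR adjusted p = 0.137).

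Kcnj8 encodes a pore subunit of the ATP-sensitive channel of smooth muscle. Its region (chr6:142567322-142574260) held 113, 131, 117, 112 and 125 CPM in WT replicates 1 to 5 and 101, 106, 102 and 112 CPM in DKO replicates 1 to 4. The lowest WT and the highest DKO value nearly touched, without overlap, with a log2 fold change, DKO minus WT, of -0.18 (SE 0.091, edgeR adjusted p = 0.252). Kcna5, a channel of atrium and vascular muscle, had 2 regions. The longer (chr6:126529012-126535940) held 85.6, 105, 101, 93.6 and 104 CPM in WT replicates 1 to 5 and 83.9, 98.9, 95.4 and 88.01 CPM in DKO replicates 1 to 4, overlapping values with a log2 fold change of -0.097 (SE 0.097). The shorter gave -0.14 (SE 0.17). The promoter rows of Kcna5, Kcna6 and Kcnj8 gave log2 fold changes of -0.014, -0.16 and -0.27 for the strongest row of each, with SEs of 0.13, 0.18 and 0.26.

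**Figure D3:**
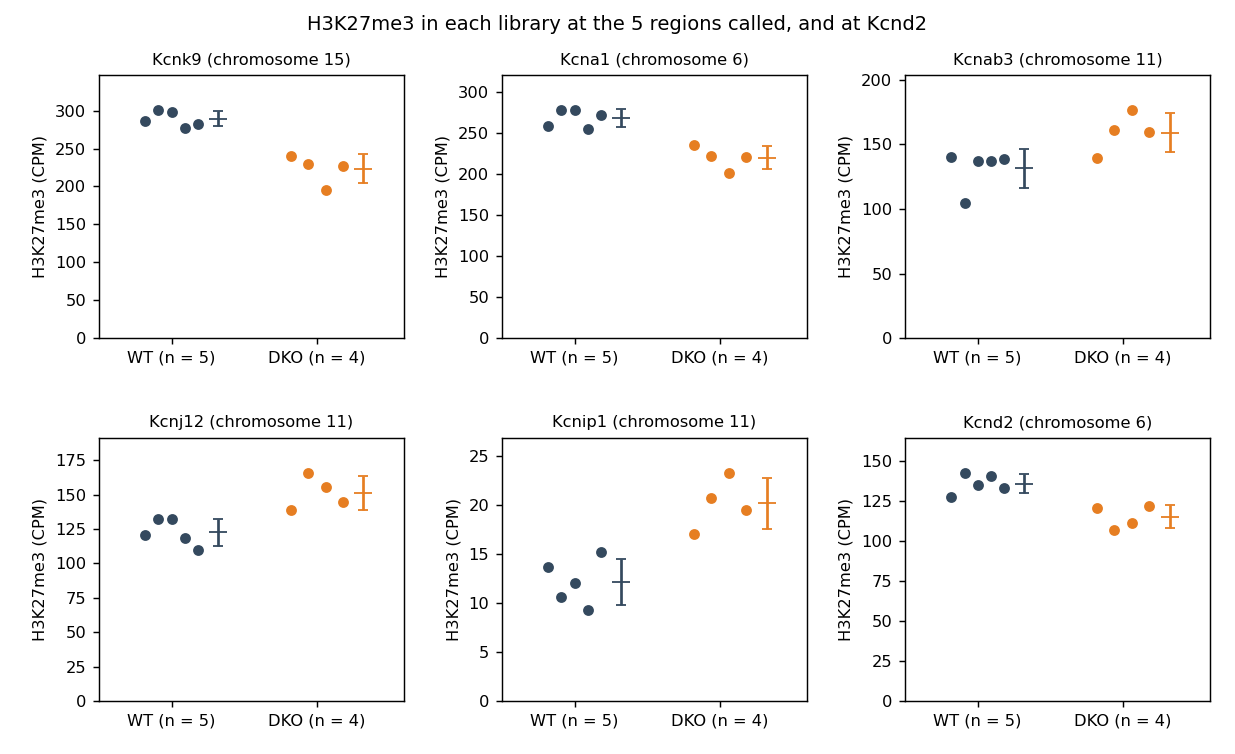
H3K27me3 in CPM (vertical axes, from 0) in each WT and DKO library at the 5 called potassium channel regions and at Kcnd2. Dots are libraries and bars the mean ± SD beside them, and DKO dots lie below all WT dots at Kcnk9, Kcna1 and Kcnd2 and above them at Kcnj12 and Kcnip1, while at Kcnab3 the groups overlap.

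On chromosome 11, 2 member rows and 3 member regions rose, on a chromosome where most rows and regions were higher in DKO. Kcnip1 encodes a calcium-binding protein that brings Kv4 channels to the cell surface, and its 3 RefSeq starts lie on the minus strand far apart within one gene, with Kcnmb1 on the opposite strand inside it. The middle start (chr11:33843637-33843936, minus strand) had 16 CpG and lay in a 6040 bp region. The most 3′ start (chr11:33680633-33680932, minus strand) had 4 CpG and lay in a 1849 bp region (chr11:33680075-33681923). The most 5′ start (chr11:33993144-33993443, minus strand) had 7 CpG and overlapped none, although a DKO-list region of 663 bp lay beside it. They are shown, a choice made after the values were seen, because only the most 3′ start had a call. Whether the starts differed in their change was not tested.
Kcnip1 middle start: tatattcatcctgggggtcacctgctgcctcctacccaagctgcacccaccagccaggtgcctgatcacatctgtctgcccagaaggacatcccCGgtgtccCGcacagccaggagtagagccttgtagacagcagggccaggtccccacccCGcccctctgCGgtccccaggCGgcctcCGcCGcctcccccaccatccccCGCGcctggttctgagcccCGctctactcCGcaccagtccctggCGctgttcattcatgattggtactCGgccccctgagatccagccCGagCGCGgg
Kcnip1 most 3′ start: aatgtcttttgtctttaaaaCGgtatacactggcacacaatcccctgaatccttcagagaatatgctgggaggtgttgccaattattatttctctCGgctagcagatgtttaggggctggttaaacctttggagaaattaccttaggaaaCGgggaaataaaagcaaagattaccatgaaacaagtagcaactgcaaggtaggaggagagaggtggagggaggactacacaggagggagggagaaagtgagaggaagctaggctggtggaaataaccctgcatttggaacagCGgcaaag
Kcnip1 most 5′ start: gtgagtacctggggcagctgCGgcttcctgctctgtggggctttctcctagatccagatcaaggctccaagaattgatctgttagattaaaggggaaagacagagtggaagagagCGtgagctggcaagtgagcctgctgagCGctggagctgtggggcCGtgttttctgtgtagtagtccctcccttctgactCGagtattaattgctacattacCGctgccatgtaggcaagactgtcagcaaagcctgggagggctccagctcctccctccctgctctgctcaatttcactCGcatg

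At the most 3′ start of Kcnip1 the promoter row (chr11:33679571-33682571) held 38.95, 31.6, 40.3, 23.9 and 43.9 CPM in WT replicates 1 to 5 and 47.2, 59.7, 63.9 and 55.8 CPM in DKO replicates 1 to 4. Every DKO library was above every WT library, with a log2 fold change, DKO minus WT, of 0.67 (SE 0.17, edgeR adjusted p = 0.0315). The region at that start held 13.7, 10.6, 12.1, 9.36 and 15.2 CPM in WT replicates 1 to 5 and 17.1, 20.8, 23.4 and 19.5 CPM in DKO replicates 1 to 4. It rose 1.64-fold without overlap, with a log2 fold change, DKO minus WT, of 0.72 (SE 0.19, edgeR adjusted p = 0.0120). At the CpG-richer middle start the region held 77.3, 72.5, 70.5, 66.3 and 63.9 CPM in WT replicates 1 to 5 and 69.4, 82.3, 71.4 and 78.1 CPM in DKO replicates 1 to 4, overlapping values with a log2 fold change of 0.11 (SE 0.11, edgeR adjusted p = 0.602). The difference between the starts was not tested. Total H3 at the region of the most 3′ start was 25.96 and 25.7 CPM in the WT libraries and 36.8 and 26.2 CPM in the DKO libraries, a log2 fold change of 0.25 (SE 0.40, adjusted p = 0.981). H3 there was higher in both DKO libraries, and its part in the result was not tested. The row of the most 5′ start gave 34.4 ± 8.09 CPM (SD, n = 5) in WT and 51.9 ± 11.4 CPM (SD, n = 4) in DKO, and a log2 fold change, DKO minus WT, of 0.61 (SE 0.18, edgeR adjusted p = 0.0847). The row's call ended on omitting any 1 of WT replicates 2 and 4 and DKO replicates 2, 3 and 4 (adjusted p = 0.0731 to 0.189), and the region's on omitting any 1 of WT replicate 4 and DKO replicate 3 (adjusted p = 0.0615 to 0.0945). In the sets lacking and bearing Old or New the region's changes were 0.62 (adjusted p = 0.467) and 0.79 (adjusted p = 0.0866).

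Kcnj12, a strong inward rectifier of heart and brain, rose in both readouts. Its promoter row (chr11:61020564-61023564) held 135, 149.8, 145, 121 and 134 CPM in WT replicates 1 to 5 and 169, 227, 179 and 182 CPM in DKO replicates 1 to 4. The groups did not overlap, with a log2 fold change, DKO minus WT, of 0.47 (SE 0.12, edgeR adjusted p = 0.0249). Its 6806 bp region (chr11:61019141-61025946) held 121, 133, 132, 118 and 109.6 CPM in WT replicates 1 to 5 and 139, 166, 155 and 144 CPM in DKO replicates 1 to 4, also without overlap, with a log2 fold change, DKO minus WT, of 0.31 (SE 0.086, edgeR adjusted p = 0.0199). Total H3 at that region was 102 and 138 CPM in the WT libraries and 194 and 174 CPM in the DKO libraries, a log2 fold change of 0.60 (SE 0.18, adjusted p = 0.564). H3 was thus higher in both DKO libraries too, and its part in the result was not tested. The row's call ended on omitting any 1 of WT replicates 4 and 5 and DKO replicates 2 and 4 (adjusted p = 0.0594 to 0.334), and the region's on omitting any 1 of WT replicates 4 and 5 and DKO replicates 2 and 3 (adjusted p = 0.0523 to 0.123). In the sets lacking and bearing Old or New the region's changes were 0.24 (adjusted p = 0.530) and 0.41 (adjusted p = 0.0491). With the replicate number as a block, neither was called (edgeR adjusted p = 0.0647 and 0.0804). That fit used replicates 1 to 4 alone and so also left out WT replicate 5, whose omission by itself ended both calls.

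Kcnab3, a cytoplasmic beta subunit of Kv1 channels, had the weakest call. Its 9585 bp region (chr11:69326290-69335874) covers nearly the whole gene and held 140.4, 105, 137, 137 and 139 CPM in WT replicates 1 to 5 and 139.6, 161, 177 and 159 CPM in DKO replicates 1 to 4. WT replicate 2 was low and DKO replicate 1 lay within the WT range, with a log2 fold change, DKO minus WT, of 0.27 (SE 0.085, edgeR adjusted p = 0.0461). Total H3 there was 197 and 217 CPM in the WT libraries and 145 and 215 CPM in the DKO libraries. Its call ended on omitting any 1 of WT replicates 2, 3, 4 and 5 and DKO replicates 2, 3 and 4 (adjusted p = 0.0512 to 0.220), and with DESeq2 (adjusted p = 0.0686). In the sets lacking and bearing Old or New the changes were 0.22 (adjusted p = 0.577) and 0.29 (adjusted p = 0.142). Its promoter row gave 48.7 ± 11.7 CPM (SD, n = 5) in WT and 72.6 ± 6.80 CPM (SD, n = 4) in DKO, without overlap, and a log2 fold change, DKO minus WT, of 0.55 (SE 0.16, edgeR adjusted p = 0.0764). The row was called with library totals, a minimum count of 50 and a term for library sets (adjusted p = 0.0377, 0.0152 and 0.0355).

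All 10 tested member rows on chromosome 11 had a positive log2 fold change, with a median of 0.50, and 2 were called, where 4.10% of the 2051 tested rows of that chromosome rose and their median was 0.29. Of 9 member regions 8 were positive, with a median of 0.27, against 0.41 for all 2720 regions of the chromosome, 19.6% of which rose. Total H3 moved with it, at a median log2 fold change of 0.30 for the 9 member regions and 0.31 for all 1672 tested regions of chromosome 11. When each library was scaled on chromosome 11 rows alone, no member of the chromosome was called. Kcnj12 was then at -0.078 and Kcnab3 at -0.12 in the regions, both reversed, and Kcnip1 at 0.33 (adjusted p = 0.360). The level of the chromosome and the genotype cannot be told apart in these libraries.

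The chromosome 6 members were set beside the rest. In WT their main regions carried 17.3 CPM per kb at the median (14.2 to 22.2, 5 genes), against 18.1 CPM per kb for the 70 marked genes elsewhere. In DKO all 6 chromosome 6 regions were lower, with a median log2 fold change of -0.19 (-0.29 to -0.097), which was the level of chromosome 6 at large, -0.18 over 15714 regions, 2.00% of which fell. On chromosomes other than 6 and 11, 58 of 82 member regions were lower as well, with a median of -0.12, while the median of all 21984 regions there was 0.051. The promoter rows gave a median of -0.16 for the 5 tested chromosome 6 rows, 4 of them negative, and 0.00087 for the 80 rows on other chromosomes than 6 and 11, against -0.085 and -0.022 over all rows. The difference of the medians, chromosome 6 minus all other members, was -0.096 for regions and -0.19 for rows, and it was not tested.

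Level moved with the change. Of 48 member regions on other chromosomes with at least 50 CPM in WT 41 were lower in DKO (85.4%, median -0.14), and 74.7% of all 3118 such regions were (median -0.094). Among members under 50 CPM, 17 of 34 were lower (median -0.017), and 37.8% of all 18866 such regions (median 0.096). On chromosome 6 at least 50 CPM, all 5 members and 89.7% of all 445 regions were lower, with medians of -0.20 and -0.15. The split by level and the change share the same WT values, which can tie one to the other by construction. The part of level in these shifts was not tested. Without TMM scaling, on library totals alone, 41 of the 97 member regions were positive and 56 negative, against 32 and 65 with it.

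**Figure D4:**
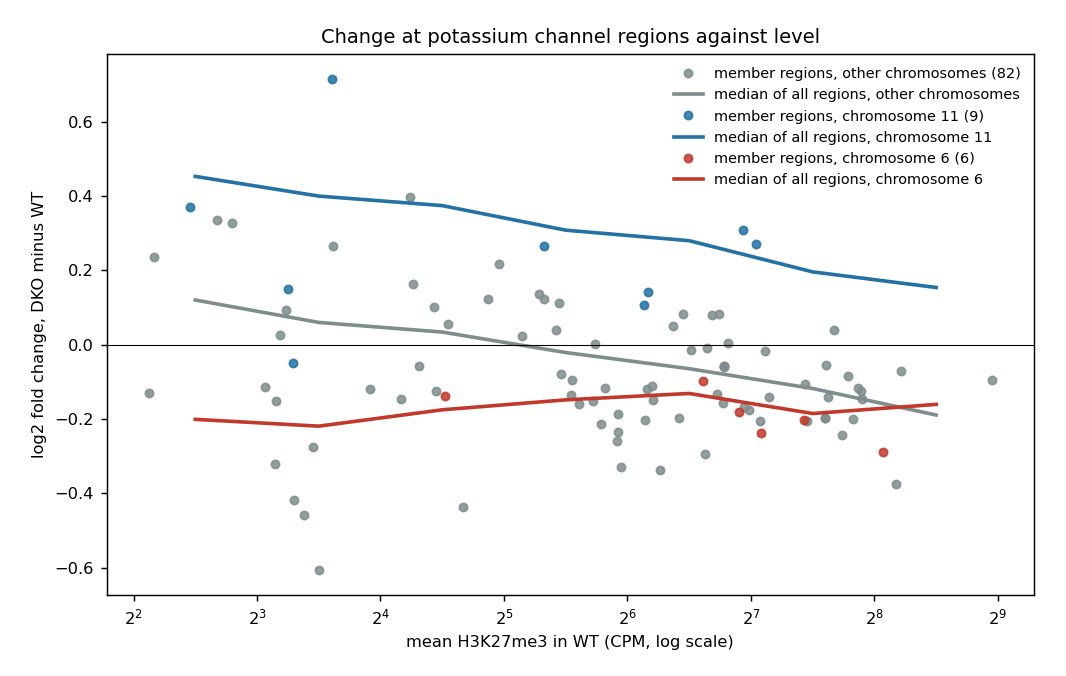
Log2 fold change of H3K27me3, DKO minus WT (vertical axis), against mean WT level in CPM (horizontal axis, log scale) for the 97 tested potassium channel regions, coloured by chromosome. Lines join medians of all regions of the same chromosomes in classes of level, and the 6 chromosome 6 members lie near the red line while most strong members of other chromosomes lie below 0 near the grey one.

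Chromosome 6 also differed in what surrounded the genes. Within 50000 bp of the promoter rows lay 136 regions that did not belong to members, 27.2 per chromosome 6 gene, against 6.38 on chromosome 11 and 3.70 on the other chromosomes. Chromosome 6 held 41.5% of all regions but 5.88% of member regions. Around Kcna1 there were 40, around Kcna5 33, around Kcna6 32, around Kcnj8 27 and around Kcnd2 8. The strain label names Rosa26, which RefSeq puts on chromosome 6 at 113067428 to 113077244. Kcna5, Kcna1 and Kcna6 lie 13.5 to 13.7 Mb from it, Kcnj8 29.5 Mb and Kcnd2 91.9 Mb. Of the 95 flanking chromosome 6 regions tested 72 were lower in DKO (75.8%) and 2 fell, with a median of -0.20. Over all tested chromosome 6 regions 71.9% were lower and 2.00% fell, with a median of -0.18. All 34 tested around chromosome 11 members were higher and 5 rose, with a median of 0.37. Over all tested chromosome 11 regions 5.96% were lower and 19.6% rose, with a median of 0.41.

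Total H3 was called at 0 of 88 tested member regions by edgeR, where 0.0211% of 18938 regions were called. At an unadjusted edgeR p under 0.05 there were 4 of 88, against 1169 of all 18938 regions, and DESeq2 called 0. The log2 fold changes had a median of -0.017, with 43 positive and 45 negative. With 2 libraries of each genotype the median SE was 0.25, against 0.11 for H3K27me3, so a change in H3 of the size seen for the mark was mostly not detectable at this depth. A 769 bp region of Kcnh4 on chromosome 11, named after its values were seen, had 4.33 and 11.8 CPM in the WT libraries and 21.02 and 24.3 CPM in the DKO libraries of H3, a log2 fold change of 1.45 (SE 0.71, adjusted p = 0.794) on 29 reads in all. On chromosome 6 the 6 members had a median H3 change of -0.081, with 2 positive.

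**Figure D5:**
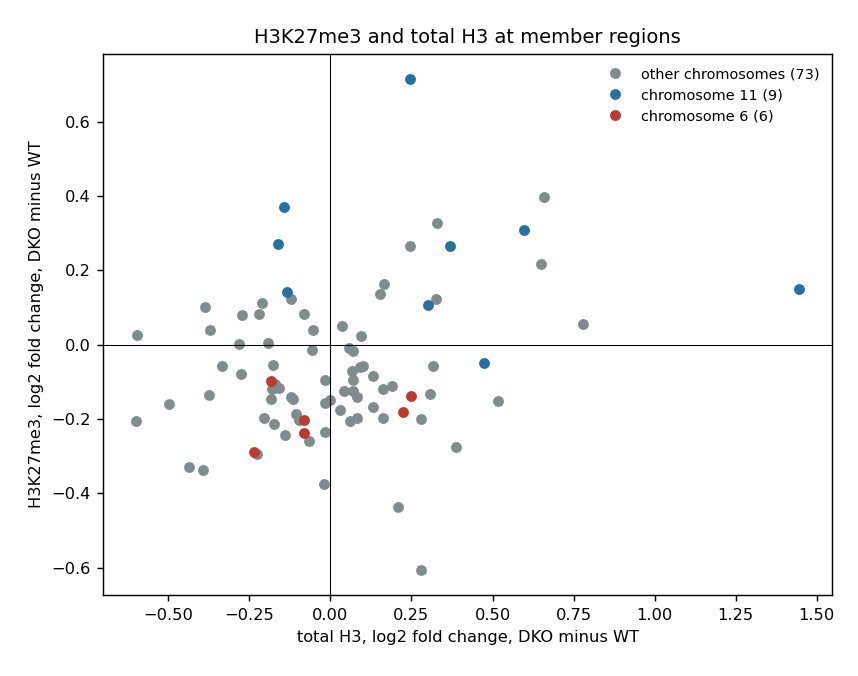
Log2 fold change of H3K27me3 (vertical axis) against that of total H3 (horizontal axis), DKO minus WT, at the 88 potassium channel regions tested for both, coloured by chromosome. Chromosome 11 members lie mostly above 0 on the vertical axis and 6 of 9 to the right of 0, while chromosome 6 members lie below 0 on the vertical axis and on both sides of 0 on the other.

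Other members with larger changes stayed short of the test. The 8 rows of largest rise included, beside the rows above, Kcnmb1 at 0.59 (adjusted p = 0.256) and 2 rows of Kcnj16, an inward rectifier of kidney, at 0.52 and 0.39, all on chromosome 11. Kcne2, a subunit of heart and stomach, was the one off that chromosome, at 0.42 (adjusted p = 0.477), with 20.3 ± 3.90 CPM (SD, n = 5) in WT and 27.8 ± 3.01 CPM (SD, n = 4) in DKO. The 8 of largest fall were, beside Kcnk9, rows of Kcnu1, Kcnk16, Kcnk15, Kcna10, Kcnj1, Kcns2 and Kcnq1. They lay between -0.59 (Kcnu1) and -0.40 (Kcnq1), at 12.1 to 40.1 CPM in WT, with adjusted p values of 0.425 to 0.611. In each of these 7 uncalled rows the groups overlapped, whereas at Kcne2 every DKO library was above every WT library. Over all tested member rows every DKO library was above every WT library at 6 of 95 (6.32%, against 1.74% of all rows) and below at 2 (2.11%, against 1.61%). In the regions it was above at 2 of 97 (2.06%, against 3.36%) and below at 8 (8.25%, against 3.40%). Those 8 were Kcnk9, Kcna1, Kcnd2, Kcnj8, Kcnk6, Kcnj10, Kcns1 and a region of Kcnh7, the last 4 named after their values were seen.

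The other regions among the 5 longest were not called, apart from Kcna1, and Kcna6 is given above. Kcnj4 held 490.1, 515, 508, 501 and 459.9 CPM in WT replicates 1 to 5 and 489, 477, 485 and 403 CPM in DKO replicates 1 to 4, values that overlapped, with a log2 fold change, DKO minus WT, of -0.094 (SE 0.062, edgeR adjusted p = 0.404). DKO replicate 4 was the low one. Kcnd3 (11167 bp), the second A-type channel gene, gave -0.14 (SE 0.074, adjusted p = 0.263), and Kcnk15 (10794 bp) gave -0.14 (SE 0.078, adjusted p = 0.308). A p above the threshold does not show that these regions were equal in both genotypes.

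Partners of potassium channels outside the Kcn symbols were marked almost as often. Of 22 such genes, which include sulfonylurea receptors, Kv4 partners, gamma subunits of BK, scaffolds and the repressor Rest, 17 had a region and 15 had a tested row. None of the 15 was called by edgeR and 2 had an unadjusted p under 0.05, against 3337 of all 32647 tested rows. The 4 highest in WT were Lrrc38, a gamma subunit of BK, at 216 CPM, Adam11 at 172 CPM, Ank3, the ankyrin of the axon initial segment, at 171 CPM and Abcc8, the sulfonylurea receptor of the pancreatic ATP-sensitive channel, at 117 CPM. In DKO they were at 201, 207, 161 and 105 CPM, and Adam11, on chromosome 11, was the only one of the 4 that was higher.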

How the data were processed

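ChIP-seq reads of 13 libraries were aligned to mm10 and counted with featureCounts 2.0.3 by the authors, per the file headers and the submitters' processing notes, which also name Bowtie2, MACS2 and bedtools without a role. The deposited values are raw counts per promoter row and per region of a union of H3K27me3 regions, and the WT and DKO region tables were joined by region. From these 37 mitochondrial rows and 1 overlong row were left out. edgeR 4.0.16 (R 4.3.3) fitted all rows, with TMM factors, filterByExpr (minimum count 10, minimum total 15), the quasi-likelihood F test (two-sided) and Benjamini-Hochberg adjustment over all tested rows, at 0.05. SEs are the log2 fold change over the root of F. DESeq2 1.42.0, other scalings and filters, library sets, the replicate block and omission of each library were alternatives. The fits were tested on simulated data. Replicates of each group differed beyond sampling noise. Promoter sequences are from RefSeq. Members and lists were chosen with earlier results of these data known. Genes were named by rule: called rows, all of chromosome 6, the strongest and weakest of each family and of all members, the 8 largest changes each way and the 5 longest regions. Some members that this rule selects are not reported by name here.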

Additional observations from a re-analysis of the deposited data

Results flagged for a closer look

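Among 66 groups of libraries examined at the named members, 5 held a library that stood apart from the rest of its group, and chance marks about 1 group in 20 this way. At the second promoter row of Kcnk15, a two-pore channel gene, DKO replicate 2 was high at 11.1 CPM, against 7.50 to 8.04 CPM in the other DKO libraries. At the first row of Kcns3, a silent Kv subunit, WT replicate 1 was high at 31.2 CPM against 14.7 to 19.3 CPM. The row of Kcnmb3, a BK beta subunit, had 32.7 CPM in WT replicate 4 against 8.55 to 15.4 CPM. In the region of Kcnab3, WT replicate 2 was low at 105 CPM against 137 to 140.4 CPM, and without it the rise in DKO was 0.20 on the log2 scale (edgeR adjusted p = 0.206). In the region of Kcnj4, DKO replicate 4 was low at 403 CPM against 477 to 489 CPM.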

How the results depend on the processing

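Over 33 named members' results and 689 alternative settings, 614 kept direction and side of the threshold, 52 kept direction but lost the call, 7 gained it and 16 reversed. In the main edgeR fit 12 of 95 member rows had an unadjusted p under 0.05, against 3337 of all 32647 tested rows. For regions these counts were 23 of 97 and 7900 of 40418. For the alternative fits below, only the member counts at that level are given. Called promoter rows numbered 3 and became 5 with library totals, 5 with a term for library sets, 1 with no filter on low counts and 1 with a chromosome 11 offset. In edgeR fits within the libraries lacking Old or New and within those bearing them the count was 0 in each, with 10 and 11 rows at an unadjusted p under 0.05. Leaving out each library gave 0 to 3 rows: 0 without DKO replicate 4 (13 at an unadjusted p under 0.05) and 1 on leaving out any of WT replicates 2, 4 and 5 and DKO replicates 2 and 3. Called regions numbered 5 and became 9 with scaling off chromosomes 6 and 11, 2 with the chromosome 11 offset, 0 in the libraries lacking Old or New (8 at an unadjusted p under 0.05) and 2 in those bearing them. Leaving out each library gave 1 to 8 regions: 8 without WT replicate 1, 3 without WT replicate 5 or DKO replicate 2, and 1 without DKO replicate 3. The cause was not tested. The median WT level of the strongest rows, 27.9 CPM, was 22.6 CPM as a mean over all rows of a gene and 25.3 CPM with library totals.

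The Kcna5 row, at -0.014 on the log2 scale, reversed to 0.0097 with library totals, 0.0021 with no filter, 0.0029 with the library set term, 0.041 in libraries with Old or New and 0.030 with clone 13 alone, and ran from -0.10 to 0.068 on leaving out each library. In libraries with Old or New the rows of Kcnj8, Kcns3 and Kcnmb3 reversed to 0.22, -0.018 and -0.0074, and in those without, the third row of Kcnj16 reversed to -0.16. With the chromosome 11 offset, which removes that chromosome's shift by construction, the regions of Kcnab3 and Kcnj12 reversed to -0.12 and -0.078. The chromosome 6 median minus that of other members stayed negative, at -0.26 to -0.036 for rows and -0.19 to -0.063 for regions.

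Same-numbered WT and DKO libraries did not deviate together (correlations of -0.028 to 0.070), so the numbers were not read as pairs. The number 4 joins a WT library labelled Old with a DKO library labelled New. Libraries that share a word correlated at 0.064 (Old) and 0.041 (New) in the rows and 0.0055 and 0.089 in the regions. With a term for Old, New and neither, all 3 rows and 5 regions were still called. For H3K27me3 the replicate block used replicates 1 to 4 alone, so WT replicate 5 was left out as well. With the block 2 rows (1 higher, 1 lower) and 5 regions (2 higher, 3 lower) were called by edgeR, and 0 regions for H3, where 4 had an unadjusted p under 0.05. Kcnj12 was then at 0.45 (edgeR adjusted p = 0.0647) in the row and 0.26 (edgeR adjusted p = 0.0804) in the region.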
